A study of Mus musculus with 6 samples.

Results

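The GIMAP GTPases (GTPases of the immunity-associated protein family) were followed in splenic B cells that had been stimulated with CpG DNA, a ligand of TLR9. The members were chosen by gene symbol, and all 8 mouse genes named, Gimap1, Gimap3, Gimap4, Gimap5, Gimap6, Gimap7, Gimap8 and Gimap9, were found among the 23420 genes of the deposited tables. RNA-seq was done on B cells purified with magnetic beads from the spleens of BALB/c mice, which were wild-type and 7–11 weeks old. In the CpG-stimulated group (n = 3), cells were cultured for 4 hours with CpG ODN 1826 at 10 μg/ml, and in the unstimulated group (n = 3) they were cultured without it. Replicates 1 and 2 of each group were labeled female and replicate 3 male. The labels speak of 3 mice but do not say whether a replicate is 1 mouse or a pool, so that p values measure the spread between these samples.

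GIMAP proteins share a GTP-binding domain and form a family that is expressed mainly in lymphocytes. Their genes lie side by side in 1 cluster in vertebrate genomes, and several members carry a hydrophobic tail that anchors them in the membranes of organelles. The family is best known for keeping resting lymphocytes alive: mice or rats that lack Gimap5 lose T cells, and deletion of Gimap1 in mice depletes mature T and B cells. In GENCODE M21 (GRCm38) the 8 genes span 124 kb of chromosome 6, chr6:48647234-48770851, in the order Gimap8, Gimap9, Gimap4, Gimap6, Gimap7, Gimap1, Gimap5 and Gimap3. Gimap6 and Gimap3 are on the minus strand, and the other 6 are on the plus strand. The longest coding transcript of Gimap8 holds 688 codons, while those of the other 7 hold 291 to 328.

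To show what stands in front of the genes with the most different responses, 4 of the promoter windows (250 bases before to 50 bases after the RefSeq start, GRCm38.p6) are printed here 5′ to 3′ on the gene's own strand. Capitals mark every match to a motif of the list named further on. Gimap4 (chr6:48684328-48684627, plus strand) and Gimap9 (chr6:48675885-48676184, plus strand) had the largest increases in the family, Gimap1 (chr6:48738797-48739096, plus strand) had the largest decrease, and Gimap7 (chr6:48718371-48718670, plus strand) is shown because its window holds letters in common with those of Gimap4 and Gimap1.
Gimap4: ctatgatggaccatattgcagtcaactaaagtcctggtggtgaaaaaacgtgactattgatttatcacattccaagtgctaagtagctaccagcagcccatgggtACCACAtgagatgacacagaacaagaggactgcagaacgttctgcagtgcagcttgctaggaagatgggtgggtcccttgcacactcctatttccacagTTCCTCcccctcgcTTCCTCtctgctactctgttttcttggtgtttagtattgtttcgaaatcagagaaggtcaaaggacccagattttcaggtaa
Gimap9: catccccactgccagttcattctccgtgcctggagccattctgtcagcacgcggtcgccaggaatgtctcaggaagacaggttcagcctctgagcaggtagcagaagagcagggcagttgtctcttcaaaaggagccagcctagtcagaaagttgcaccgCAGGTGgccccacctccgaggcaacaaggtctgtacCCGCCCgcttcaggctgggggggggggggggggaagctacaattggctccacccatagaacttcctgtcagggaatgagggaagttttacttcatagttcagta
Gimap7: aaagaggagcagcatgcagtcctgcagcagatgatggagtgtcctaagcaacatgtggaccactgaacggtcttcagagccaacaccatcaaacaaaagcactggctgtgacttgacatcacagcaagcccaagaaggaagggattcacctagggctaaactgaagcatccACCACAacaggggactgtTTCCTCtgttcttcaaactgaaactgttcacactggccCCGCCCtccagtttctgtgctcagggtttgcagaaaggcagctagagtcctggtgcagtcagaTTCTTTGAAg
Gimap1: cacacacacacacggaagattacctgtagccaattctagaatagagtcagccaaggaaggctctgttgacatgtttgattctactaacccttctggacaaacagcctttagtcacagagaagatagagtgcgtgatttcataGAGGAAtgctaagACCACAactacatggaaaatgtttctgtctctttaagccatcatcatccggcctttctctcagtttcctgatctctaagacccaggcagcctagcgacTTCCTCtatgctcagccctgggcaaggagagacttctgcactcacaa

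All 8 windows of distinct genes, and a second start of Gimap8, were searched on both strands. The letters TGTGGT, the core bound by RUNX factors, and GAGGAA, a core of the PU.1 type, were found in the windows of Gimap4, Gimap7 and Gimap1 and in no other member. Of all 32851 windows in the table, 16.8% held TGTGGT and 28.3% held GAGGAA. In Gimap4 the TGTGGT match began 145 bases before the start and the GAGGAA matches 46 and 32 bases before it, whereas in Gimap7 they began 79 and 61 bases before the start. In Gimap1 the TGTGGT match began 95 bases before the start, with 1 GAGGAA match 108 bases before it and another in base 4 of the transcript. The 3 genes that shared these letters did not share a response, since Gimap4 rose, Gimap1 fell and Gimap7 passed no test. TTCNNNGAA, the palindrome bound by STAT factors, was found in Gimap8, Gimap6, Gimap7 and Gimap3. That is 4 of the 9 member windows, beside 8.30% of all windows. In Gimap8 it was found only in the window of the second start. Single members held TATAAA (Gimap6, 13.6% of all windows), CAGGTG (Gimap9, 20.2%), TGTTTAC (Gimap3, 3.65%) and TGGGAA (Gimap3, 25.6%), and GGGCGG was found in Gimap9 and Gimap7 (35.7%). No member window held CCGGAA, 1 form of ETS site, which 14.9% of all windows held, or the AP-1 site TGANTCA (7.81%). The E box CACGTG (7.15%) and the NF-κB consensus (4.51%) were not found in them either. Apart from CCGGAA and GAGGAA, forms of ETS site were not searched, so their absence is not shown. No match overlapped another in a member window. The member windows held 2 to 8 CG dinucleotides each, with a median of 4, and the median over all windows was 7, which only the window of Gimap9 passed. These letters describe the windows and were not tested for binding.

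CpG stimulation changed the family in both directions. All 8 members passed the filter on low values, by which 11233 genes were tested. With limma and Benjamini-Hochberg adjustment over all tested genes (FDR under 0.05), 5 members rose (Gimap4, Gimap9, Gimap5, Gimap3 and Gimap8), 2 fell (Gimap1 and Gimap6) and 1, Gimap7, was not called. Among all tested genes, 37.6% rose and 36.7% fell, so that a call alone says little about a gene in these cells. A log2FC over 1 together with an FDR under 0.05 was reached by 4 members (15.8% of all tested genes) and a log2FC under −1 by none (15.3% of all tested genes). In 5 members every stimulated sample stood above every unstimulated sample (39.1% of all tested genes), in 1 every stimulated sample stood below (38.6%), and in 2 the groups overlapped. The median log2FC of the 8 members was 0.90, whereas that of all tested genes was 0.0033, with quartiles at −0.62 and 0.65. Values are log2 CPM (counts per M counted reads) throughout, and log2FC is the mean of the stimulated samples less the mean of the unstimulated samples.

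**Figure D1:**
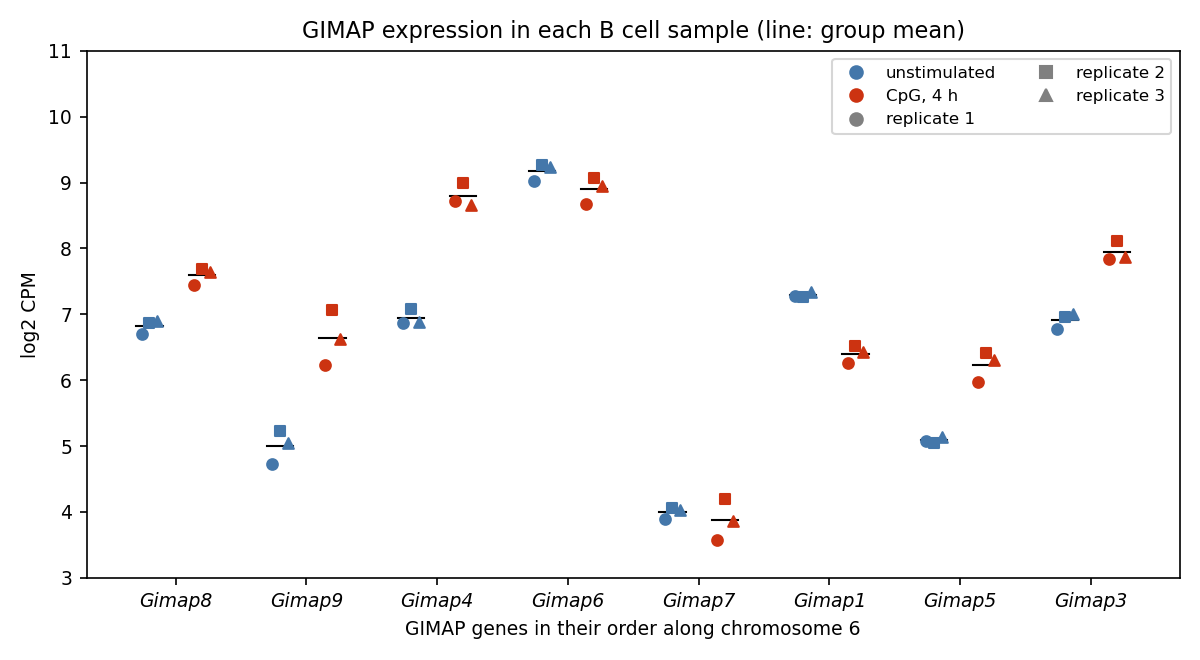
Log2 CPM of each GIMAP gene (y axis) in each sample, with the genes in chromosomal order on the x axis; blue points are unstimulated, red points CpG-stimulated, the shape gives the replicate number and the line the group mean (n = 3). The red points lie above the blue in Gimap8, Gimap9, Gimap4, Gimap5 and Gimap3, below them in Gimap1, and among them in Gimap6 and Gimap7.

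Gimap4, which has been linked to T cell death and cytokine secretion, had the largest increase. Its level was 6.87, 7.09 and 6.88 in unstimulated replicates 1 to 3 and 8.71, 8.99 and 8.66 in the stimulated ones. The lowest stimulated sample was 1.58 above the highest unstimulated one, and samples of 1 group lay within 0.33 of each other. The log2FC was 1.84 ± 0.095 (SE; FDR = 9.92e-08), a 3.59-fold rise that placed Gimap4 at rank 455 of the 11233 genes tested. The differences between samples of the same number ran from 1.78 to 1.90.

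Gimap9, a member that mice have and humans lack, was expressed in the unstimulated samples at 4.73, 5.23 and 5.04 and in the stimulated samples at 6.23, 7.07 and 6.63. Every stimulated sample was higher, although this gene had the widest spread among stimulated samples (SD 0.42). The log2FC was 1.64 ± 0.19 (SE; FDR = 2.39e-05), or 3.12-fold.

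Gimap5, an anchored protein of lysosomal membranes required for lymphocyte survival, stood at 5.08, 5.05 and 5.13 without CpG. After stimulation it stood at 5.97, 6.41 and 6.30. The unstimulated values were nearly equal, and the lowest stimulated value was well above them. The log2FC was 1.14 ± 0.11 (SE; FDR = 5.03e-06).

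Gimap3, the closest relative of Gimap5 and a gene linked in mice to the segregation of mitochondrial DNA in blood cells, moved in the same way. The unstimulated values were 6.78, 6.96 and 7.00 and the stimulated values 7.83, 8.11 and 7.88, with no overlap. Its log2FC was 1.02 ± 0.088 (SE; FDR = 2.67e-06). The log2FC was under 1 without stimulated replicate 2 (0.94), unstimulated replicate 1 (0.96) or number 2 in either group (0.96).

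Gimap8, the longest member, which carries several GTP-binding domains in 1 chain, rose the least of the 5. Values of 6.70, 6.86 and 6.89 in unstimulated cells stood against 7.45, 7.68 and 7.64 in stimulated cells. The groups did not overlap, and the log2FC was 0.77 ± 0.080 (SE; FDR = 1.07e-05).

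Gimap1, on which the survival of mature B cells depends in mice, went the other way. It was measured at 7.28, 7.27 and 7.34 in unstimulated and at 6.27, 6.51 and 6.42 in stimulated samples. All stimulated samples were lower, and the log2FC was −0.89 ± 0.073 (SE; FDR = 1.96e-06), which is 1.86-fold lower. Samples of the same number differed by −1.01 to −0.75.

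Gimap6, which binds GABARAPL2 and takes part in autophagy, had the highest log2 CPM of the family before stimulation. It was 9.02, 9.26 and 9.23 in unstimulated and 8.68, 9.06 and 8.95 in stimulated samples. The groups overlapped, since stimulated replicate 2 was above unstimulated replicate 1, and only within each number was the stimulated sample always lower, by 0.20 to 0.34. The log2FC was −0.27 ± 0.10 (SE; FDR = 0.0346; 95% interval −0.50 to −0.042). The call was lost (FDR = 0.0528 to 0.124) when either stimulated replicate 1 or 3, or unstimulated replicate 2 or 3, was left out, with log2FC values of −0.16, −0.30, −0.23 and −0.24 in that order. With the replicate number as a block, the FDR was 4.76e-04.

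Gimap7, whose protein dimerizes and hydrolyzes GTP, had the lowest level. It was 3.90, 4.07 and 4.03 in unstimulated and 3.57, 4.20 and 3.86 in stimulated samples. Stimulated replicate 2 was the highest of the 6 and stimulated replicate 1 the lowest. The log2FC was −0.12 ± 0.15 (SE; FDR = 0.479; 95% interval −0.45 to 0.21), an interval that includes no change and leaves out the increases of the 5 members that rose. The difference became 0.032 without stimulated replicate 1.

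The exact 2-sided permutation test of 3 against 3 samples cannot go below 0.1. By this exact permutation test, p was 0.1 for Gimap4, Gimap9, Gimap5, Gimap3, Gimap8 and Gimap1, 0.2 for Gimap6 and 0.6 for Gimap7. By the common library size of 17.8 M reads that the values carry, the members' values correspond to at least 211 reads in every sample, and a gene at the filter to 10 reads.

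**Figure D2:**
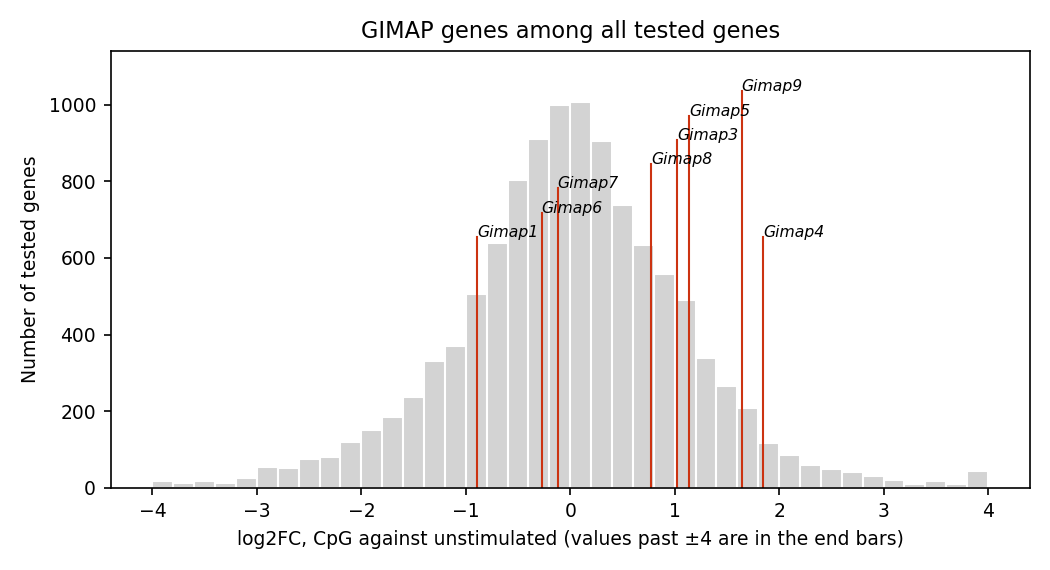
Number of tested genes (y axis) by log2FC in bins of the x axis, grey, with the 8 GIMAP genes as red lines; the height of a line has no meaning. Gimap1 lies at −0.89 and Gimap4 at 1.84, and the other 6 lie between them.

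The order of the members changed with stimulation. Levels of different genes are given here as log2 CPM per kb of all annotated exons. In unstimulated cells the order was Gimap6 (7.36 ± 0.13, SD, n = 3), Gimap4 (6.07 ± 0.12), Gimap1 (5.68 ± 0.040), Gimap3 (5.55 ± 0.12), Gimap8 (4.93 ± 0.10), Gimap9 (4.28 ± 0.25), Gimap5 (3.03 ± 0.040) and Gimap7 (2.78 ± 0.087), and no neighbors in this order overlapped. After CpG stimulation Gimap4 (7.91 ± 0.18) was first and Gimap6 (7.09 ± 0.20) second. They were followed by Gimap3 (6.57 ± 0.15), Gimap9 (5.93 ± 0.42), Gimap8 (5.70 ± 0.12), Gimap1 (4.78 ± 0.13), Gimap5 (4.17 ± 0.23) and Gimap7 (2.66 ± 0.31). Gimap9 and Gimap8 overlapped in this group. Gimap1 fell from the third place to the sixth. When the length of the longest coding transcript was used instead, Gimap1 moved from second to sixth. On that scale Gimap6 (8.22 ± 0.20) stayed first in stimulated cells, and its values overlapped those of Gimap4 (7.94 ± 0.18).

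The same shift is visible in the make-up of the family. As a share of the summed CPM per kb of exon, Gimap6 made up 40.7%, 42.0% and 42.3% in the unstimulated samples and 20.5%, 20.9% and 22.8% in the stimulated samples. Gimap4 went from 17.0% ± 1.0 to 37.8% ± 2.2 (SD, n = 3), Gimap1 from 13.0% ± 0.94 to 4.31% ± 0.23, Gimap9 from 4.95% ± 0.51 to 9.62% ± 1.6 and Gimap3 from 11.9% ± 0.32 to 14.9% ± 0.44. For each of these 5 genes the groups did not overlap (exact permutation test, p = 0.1, the smallest possible). The share of Gimap8 was 7.72% ± 0.19 without and 8.17% ± 0.56 with CpG, with p = 0.3 by the exact permutation test, whereas its groups did not overlap with the length of the longest coding transcript (5.28% and 6.83%) or in CPM without a length (9.63% and 11.8%). Shares add up to the whole, so they are not independent of one another. The 8 genes summed to 1174 ± 83 CPM in unstimulated and 1641 ± 200 CPM in stimulated samples (SD, n = 3; exact permutation test, p = 0.1). With the length of the longest coding transcript, Gimap6 made up 53.1% and 33.2%, and Gimap4 10.0% and 27.3%. Gimap6 thus kept the largest mean share in stimulated samples on that scale. The same held in CPM without a length (29.2%, against 27.1% for Gimap4). These shares were computed after the members' values had been seen.

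**Figure D3:**
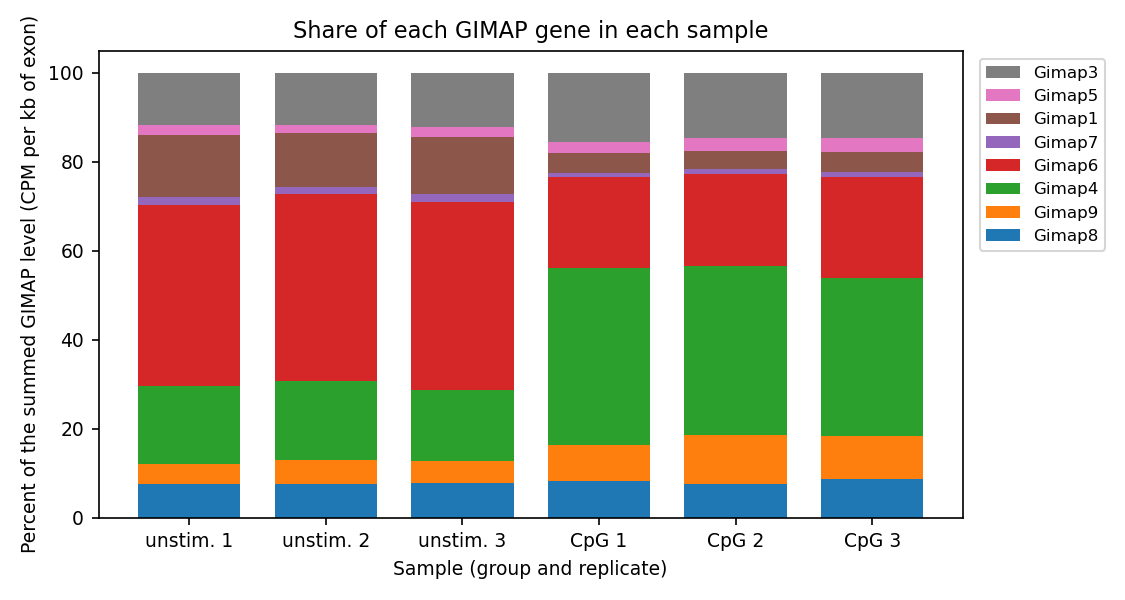
Percent of the summed GIMAP level (y axis, CPM per kb of exon) taken by each gene in each of the 6 samples (x axis). Gimap6 takes the largest part in the unstimulated samples (40.7% to 42.3%) and Gimap4 in the stimulated samples (35.6% to 39.9%).

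The members did not change evenly along the chromosome. The 3 genes that did not rise, Gimap6, Gimap7 and Gimap1, are next to one another in the middle of the cluster, with Gimap8, Gimap9 and Gimap4 on one side and Gimap5 and Gimap3 on the other. Around the cluster, 51 other annotated genes lie wholly within 500 kb of its outer ends or between members. Of these, 21 were found in the tables, none of them between members, and 11 passed the filter, of which 4 rose, 3 fell and 4 were not called, shares near those of all tested genes (37.6% rose and 36.7% fell). Their median log2FC was −0.093. The closest tested neighbors were Zfp775 before Gimap8 (log2FC 0.05 ± 0.18, FDR = 0.820) and Tmem176b after Gimap3 (−0.09 ± 0.46, FDR = 0.865). Tmem176b was expressed close to the filter, so that a change smaller than its error could not be seen. Farther out, Repin1 (0.86), Malsu1 (0.64), Igf2bp3 (1.69) and Tra2a (0.50) rose, and Zfp862 (−0.74), Atp6v0e2 (−1.46) and Lrrc61 (−0.69) fell. Krba1 (−0.16) and Zfp467 (−0.42) were not called. The call of Atp6v0e2 was lost without unstimulated replicate 1 (log2FC −1.24, FDR = 0.0742).

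**Figure D4:**
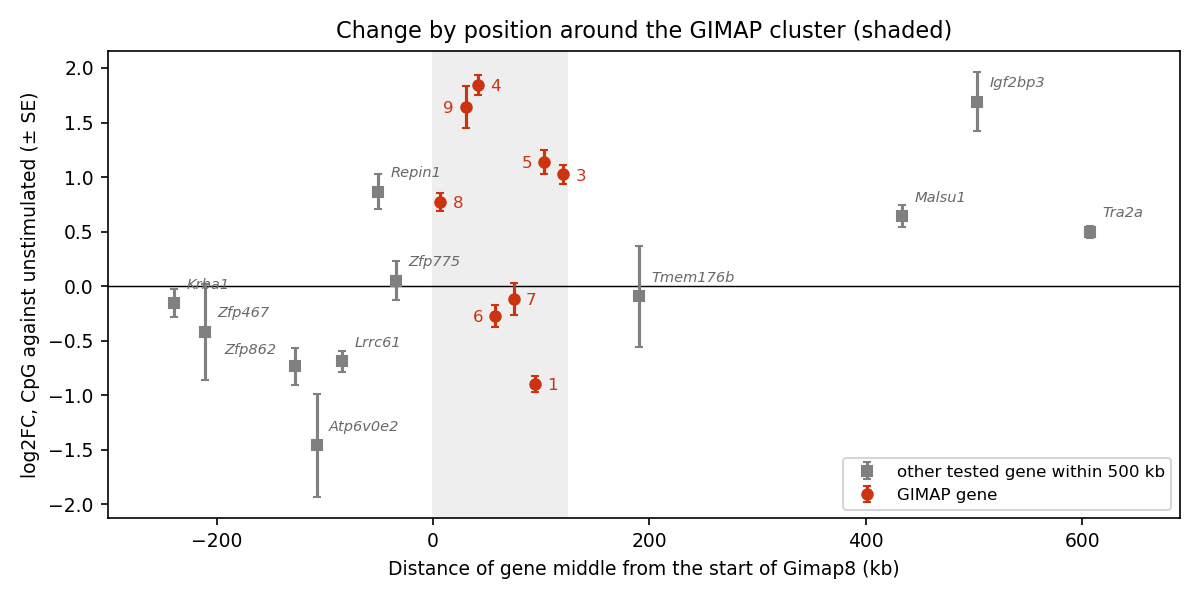
Log2FC with its SE (y axis) against the distance of the middle of each gene from the start of Gimap8 (x axis, kb); red points are GIMAP genes by their number, grey squares the 11 other tested genes, and the shaded band is the cluster. Gimap6, Gimap7 and Gimap1 lie below 0 between members that rose.

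Some members share sequence, which bears on how reads could be assigned to them. Gimap3 and Gimap5 hold 83 stretches of 75 bases, the read length, in common, or 3.32% of those of Gimap3 and 4.42% of those of Gimap5. They fall into 3 runs in the coding exons, of 140, 86 and 79 identical bases. The study's methods give paired reads, and the mate of a read, which can lie outside a run, was not considered in counting these stretches. How far mates separate the genes was not tested. The longest run is printed because a read lying wholly within it, taken without its mate, fits both genes equally well. It lies at chr6:48765681-48765820 on the minus strand in Gimap3 and at chr6:48752684-48752823 on the plus strand in Gimap5 (GRCm38, GENCODE M21 transcripts):
Gimap3 and Gimap5: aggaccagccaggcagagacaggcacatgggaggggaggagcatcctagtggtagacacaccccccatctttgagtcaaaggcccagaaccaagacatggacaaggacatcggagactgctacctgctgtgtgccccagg
Gimap4, Gimap6, Gimap8 and Gimap9 shared no such stretch with any annotated gene. Gm28053, a read-through transcript on the same strand, shares 81 exonic bases with Gimap7, 198 with Gimap1 and 153 with Gimap5. Gimap1os, on the opposite strand, overlaps the exons of Gimap1 by 1107 bases. Neither is listed in the tables. The strand setting of the counting is not given in the sources used here, so reads of Gimap1 and Gimap1os cannot be told apart from these values.

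The members also shared part of their spread between samples. Replicate number 1 was below the group mean in 8 of 8 members in both groups, beside 28.4% of all tested genes. It was the lowest of its group in both groups in 5 of 8 members (15.4%). In unstimulated samples its deviation from the group mean was only −0.017 in Gimap1 and −0.011 in Gimap5. In stimulated samples number 2 was the highest in 8 of 8 members, beside 35.1% of all tested genes, and in unstimulated samples it was the highest in 4 of 8 (29.3%). The deposited values carry a shift by replicate number that both groups share, and its part in this spread was not tested. The sum of 4 erythroid marker genes was 4912 CPM in stimulated and 3845 CPM in unstimulated number 2, whereas it was 384 to 611 CPM in the other 4 samples. Its part in the members' values was not tested. Without number 2 in either group, the counts were again 5 members that rose and 2 that fell, and the members' log2FC values ran from −0.96 (Gimap1) to 1.81 (Gimap4).

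T cells and endothelial cells also express GIMAP genes, so their markers were measured. Of 10 T cell markers in the tables (11 listed), only Lck stood above the level of 10 reads on average, at 6.14 to 7.14, and it rose (log2FC 0.67, FDR = 1.58e-04). With Lck, the list summed to 71.6–92.6 CPM in unstimulated and 125–142 CPM in stimulated samples. The other 9, among them Cd3e, Cd3d, Cd4, Cd8a and Thy1, summed to 0.893–1.58 CPM in unstimulated and 0.953–1.98 CPM in stimulated samples, and 5 were at or under the level of 3 reads in every sample. The 4 endothelial markers summed to 1.05–1.17 CPM in unstimulated and 0.739–1.05 CPM in stimulated samples. The lowest member level, that of Gimap7, was at least 11.9 CPM in every sample. All 8 B cell markers were above 10 reads in every sample, and their sum was 3949–4574 CPM without and 2948–3366 CPM with CpG. Fewer cells of a type and less RNA per cell cannot be told apart in these bulk samples.

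A list of partner genes held those whose proteins were reported to bind or act with GIMAP proteins, or only to share their processes. On this list all 5 genes of the ATG8 family fell, in a comparison in which 36.7% of all tested genes fell. These small ubiquitin-like proteins are joined to autophagosome membranes, and Gabarapl2 encodes the one that GIMAP6 binds. The log2FC values were those of Gabarap (−1.24), Gabarapl1 (−0.41), Gabarapl2 (−0.55), Map1lc3a (−1.37) and Map1lc3b (−0.88). Gabarapl2 was measured at 5.52, 5.83 and 5.76 in unstimulated and at 4.87, 5.48 and 5.13 in stimulated samples. The groups did not overlap (log2FC −0.55 ± 0.14, SE; FDR = 0.00580), but the call was lost in female samples only (−0.50, FDR = 0.0648). In Gabarapl1 they did overlap, its FDR was 0.0472, and the call was lost without stimulated replicate 1 or 3, or unstimulated replicate 1 or 2 (log2FC −0.34, −0.32, −0.32 and −0.34). The Gabarapl1 call was also lost without the filter on low values (FDR = 0.0946) and without a variance trend (FDR = 0.108).

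Genes of the BCL2 family, which control the release of death signals from mitochondria and with which several GIMAP proteins have been reported to interact, changed in both directions. The survival genes Bcl2l1 and Bcl2 rose the most, with log2FC values of 3.91 ± 0.087 and 2.54 ± 0.071 (SE; FDR = 4.66e-09 and 1.03e-08). Bcl2l1 went from 5.80, 5.51 and 5.63 to 9.69, 9.46 and 9.53, a 15.1-fold difference with a wide gap between the groups. The death gene Bax also rose (0.79), while Bak1 (−0.27), Bad (−1.26) and Bcl2l11 (−0.17) fell and Mcl1 (0.07, FDR = 0.525) was not called. The call of Bcl2l11 was lost without stimulated replicate 3 (−0.14), unstimulated replicate 1 (−0.14) or unstimulated replicate 2 (−0.17). It was also lost without a variance trend (FDR = 0.0552), in female samples only (FDR = 0.140) and without number 2 in either group (FDR = 0.0607).

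Gsk3b, a kinase that has been reported to act downstream of Gimap5, fell by 1.66 on the log2 scale (SE 0.065; FDR = 2.96e-08), and Ctnnb1, the gene of its substrate β-catenin, was not called (0.11, FDR = 0.120), although it was without stimulated replicate 2 (0.15, FDR = 0.0470). Of the genes of vesicle traffic and autophagy, Rab29, listed under its older name Rab7l1, fell by 1.42, Atg7 by 1.04, Lamp1 by 0.40 and Sqstm1 by 0.30, whereas Atg5 (0.14, FDR = 0.107) and Becn1 (0.05, FDR = 0.489) were not called. In all, 3 of the 20 genes on the list rose and 13 fell, beside 37.6% and 36.7% of all tested genes, with a median log2FC of −0.35. With log2FC past 1, 2 rose and 6 fell, beside 15.8% and 15.3% of all tested genes.

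**Figure D5:**
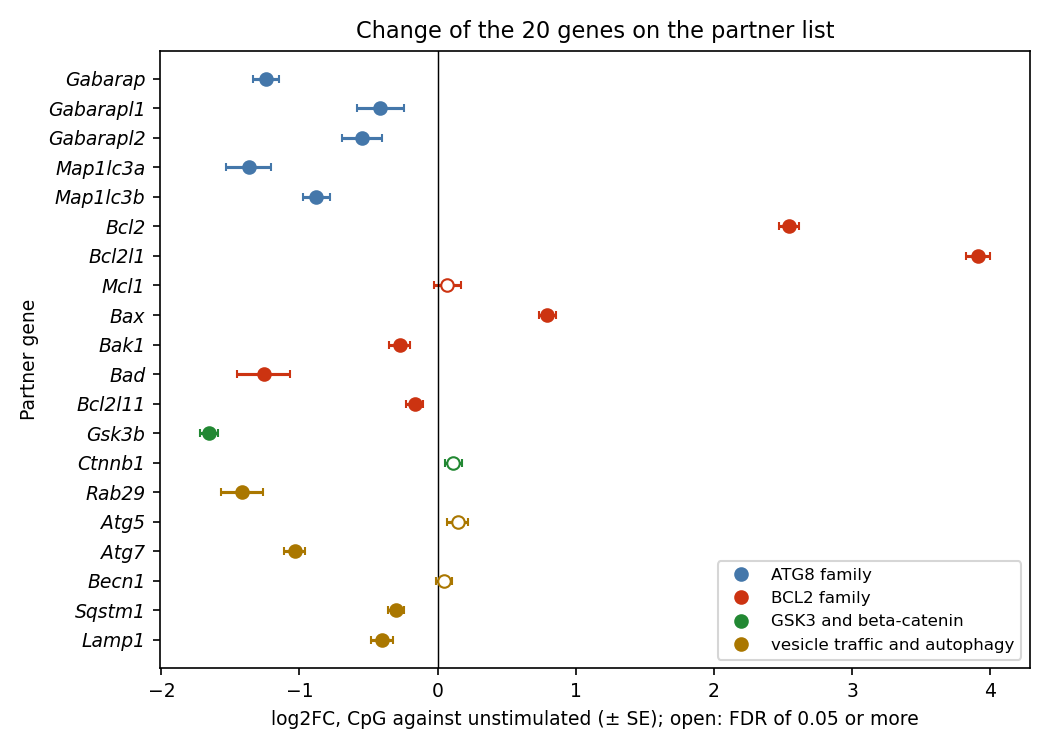
Log2FC with its SE (x axis) of the 20 genes on the partner list (y axis), colored by group; filled points have an FDR under 0.05. The 5 ATG8 family genes lie between −1.37 and −0.41, and Bcl2 and Bcl2l1 lie at 2.54 and 3.91.

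The genes closest to the mean profile of the family in their 6 values were Plgrkt, Gemin7, Chmp2a, Gpr183 and Vmp1. That mean joins members that rose with members that fell, so it need not describe any single member. Each gene was centered on its own mean and set against the mean centered profile of the 8 members, and these 5 had root mean square differences of 0.043 to 0.067 over the 6 samples. Their log2FC values ran from 0.54 (Chmp2a and Gemin7) to 0.72 (Gpr183, a receptor for oxysterols that guides B cells in the spleen). Between members, Gimap3 and Gimap5 were each other's closest (0.12), as were Gimap4 and Gimap9 (0.22) and Gimap6 and Gimap7 (0.11), and each of these pairs stands side by side on the chromosome. The member closest to Gimap8 was Gimap3 (0.14), at the other end of the cluster, and the one closest to Gimap1 was Gimap6 (0.32), which is not next to it. No member had another member as its nearest gene of all, since the closest member ranked between 17 (for Gimap9) and 2793 (for Gimap1) among 11232 genes.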

How the data were processed

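RNA-seq of 6 samples was used, 3 CpG-stimulated and 3 unstimulated, grouped by their labels. Per the labels and the study's methods, the authors trimmed reads with Trim Galore 0.6.5, checked them with FastQC 0.11.7, aligned them with STAR 2.6.1a to mm10, counted them per gene with featureCounts of Subread 2.0.1, and put the counts through quantile normalization and voom. What they deposited is log2 CPM per gene, not counts, so no count model was run. Quantile normalization hides changes in total RNA per cell and the depth of single samples. The commonest lowest value, −5.15, was taken as 0.5 reads, which gives a common library of 17.8 M reads. That level and the levels of 10 and 3 reads cover counting error only. Values of 4426 genes lie below it in some sample. In 2670 comparisons of a stimulated with an unstimulated sample of the same number such a value was identical in both (to 3 decimals), against 287 for samples of different numbers (3 and 6 pairs of samples). The values thus carry a shift by replicate number, which voom with 1 library size does not give.

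Genes above the level of 10 reads in at least 3 samples were fitted with limma 3.58.1 in R 4.3.3 (lmFit, eBayes with trend), and the script was tested on simulated data. The FDR (Benjamini-Hochberg, over all tested genes) was held under 0.05. Same-numbered samples deviated together (r = 0.435, 0.224 and 0.300, and −0.281 to 0.028 for other pairs), and each number has 1 sex in the labels. The numbers were therefore taken to pair the samples, and the replicate block was tried. The shift by number can itself give such correlations, and the 2 were not told apart. Alternatives were other filters, log2(CPM + 1), no variance trend, median centering, female samples only and each sample left out. The design counted members that fell. Counts of members that rose, levels with another length, shares, leaving out number 2 and the NF-κB motif were added after the data were seen. The members and lists were chosen with earlier results of these data known. Named were the members, all tested genes within 500 kb, the partner list of 20 genes and the 5 genes closest to the members' mean profile. Marker lists also covered NK cells (1 of 5 above 10 reads on average), myeloid cells (4 of 7) and plasmacytoid dendritic cells (1 of 4). Protein sequences were not analyzed here. Figures were drawn with matplotlib 3.10.9.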

Additional observations from a re-analysis of the deposited data

Results flagged for a closer look

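The labels give replicate 3 as male and replicates 1 and 2 as female, and in 4 of the genes set beside the family the male difference between stimulated and unstimulated samples had the opposite sign to both female differences. It was 0.026 in Krba1 (females −0.060 and −0.44), 0.24 (0.238) in Zfp467 (females −0.51 and −0.99), 0.17 (0.169) in Tmem176b (females −0.34 and −0.11) and −0.035 in Mcl1 (females 0.048 and 0.20). None of the 4 genes was called between the groups, and the difference between the sexes was not tested, as there was 1 male number. No GIMAP member had a male difference opposite to both female differences.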

How the results depend on the processing

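With the replicate number as a block, 5 members rose and 2 fell, as without it, the median log2FC was 0.90, and no call of a member changed. In all alternatives run, 5 members rose, none had a log2FC under −1, and 3 or 4 had a log2FC over 1. The member that dropped under 1 was Gimap3. The number that fell was 1 in place of 2 without the filter on low values, without a variance trend, in female samples only, and without CpG-stimulated replicate 1 or 3 or unstimulated replicate 2 or 3 (1 to 2 when single samples were left out). This came from Gimap6, with a log2FC of −0.27 and an FDR of 0.0792 without the filter, −0.27 and 0.0932 without the trend, −0.27 (−0.268) and 0.150 in females, and log2FC values of −0.36 to −0.16 when samples were left out. Gimap7 ran from −0.28 to 0.032 and turned positive without CpG-stimulated replicate 1. The median log2FC of the members ran from 0.83 to 0.96. With single samples left out, 3 uncalled genes changed sign, Zfp775 (−0.14 to 0.16), Tmem176b (−0.41 to 0.094) and Mcl1 (−0.0040 to 0.16). The causes were not tested. DESeq2 size factors and TMM were not run, since the deposited values are not counts. With 3 samples a group and no block, 1 sample decided weak calls, as for Gimap6. Leaving samples out was not tried with the block.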
